A study of Xenopus laevis with 27 samples.

Results

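Potassium channel subunit genes of the frog Xenopus laevis were taken as the genes whose name begins with kcn followed by at least 1 more letter. The rule gave 103 of the 42903 genes in the deposited tables, and the 12143 genes that the tables leave unnamed could not be matched. The 103 genes carry 72 symbols and fall into 5 classes: 40 pore-forming subunits of voltage-gated channels, 14 auxiliary subunits of voltage-gated channels, 21 inward rectifiers, 14 two-pore channels, and 14 subunits of calcium- and sodium-activated channels, with their kcnmb auxiliary subunits counted in the last class. Xenopus laevis is allotetraploid and often keeps both copies of an ancestral gene, named .L and .S after the longer and the shorter chromosome of a pair. Of the 103 genes, 56 were .L copies, 46 were .S copies and 1, kcnn2, had no suffix.

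Potassium channels let potassium ions leave or enter cells and so set the resting membrane voltage and end action potentials. Voltage-gated channels open on depolarisation, calcium-activated channels open when calcium rises inside the cell, inward rectifiers pass current best near rest, and two-pore channels carry the leak current of resting cells. Neurons use all of these classes, whereas muscle, glia, blood vessels and epithelia each rely on a narrower choice, and membrane voltage has been studied as a signal in limb regeneration.

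The libraries came from 3 tissues of adult Xenopus laevis in a study of hindlimb regeneration after local progesterone: blastema, the tissue that forms on the amputated surface, stump and brain. Each tissue was sampled in 3 treatment groups, silk, progesterone and no device, with 3 libraries in each of the 9 groups. Silk is the sham, a wearable silk device without hormone, and progesterone is the device with the hormone. The labels give no strain, sex, age or time of sampling, and they do not say whether the libraries of a group came from separate frogs, so p-values measure the spread between these samples, which may be technical.

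Values carry no unit and were taken as FPKM, fragments scaled to the length of the gene and the number of mapped reads. On that reading, levels can be compared between genes. Depth, estimated from these values, was lowest in blastema, where libraries held 179144 to 953689 reads. Stump libraries held 303065 to 3462946 reads, and brain libraries 644291 to 2096831. A single read on 1 kb of gene thus gave 1.05 to 5.58 FPKM in a blastema library and 0.477 to 1.55 FPKM in a brain library. In 3 groups, libraries 1 and 3 differed beyond sampling noise at few genes (0.313% to 0.466% of genes). These groups were blastema with progesterone and both stump and brain without a device. Each such pair was counted as 1 sample, which left 24 samples, 8 per tissue. The library labelled brain silk 3 was near-identical to brain no device 1 and 3 as well (0.319% and 0.333% of genes differed). It was kept in its labelled group, and counts of channel genes called in brain comparisons are also given without it. Tissue labels were checked against markers: the summed FPKM of 12 neuron marker genes (7 of 10 listed symbols) was 1480 to 2088 in brain, 0.97 to 55.97 in stump and 21.8 to 171.8 in blastema, and that of 15 skeletal muscle fibre marker genes was 3472 to 70414 in stump, 677 to 26905 in blastema and 16.2 to 319.6 in brain.

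Brain held the most potassium channel RNA. The summed FPKM of the 103 genes ran from 555.8 to 685.7 in the 8 brain samples with a median of 618.7. In blastema it ran from 134.3 to 421 with a median of 240.8, and in stump from 76.6 to 275 with a median of 126.6. The brain samples lay above all samples of both limb tissues, whereas blastema and stump overlapped. In these bulk samples, fewer cells of a type and less RNA per cell cannot be told apart.

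A gene was called present in a tissue at a mean FPKM of at least 1. By that measure 95 of 103 channel genes (92.2%) were present in blastema, 52 (50.5%) in stump and 74 (71.8%) in brain, beside 89.0%, 69.2% and 60.5% of all genes. Presence in the limb rested on low values. A mean of at least 5 FPKM was reached by 7 channel genes in blastema and 6 in stump but by 37 in brain, and at least 10 FPKM by 1, 0 and 16. The median channel gene was backed by 21.6 estimated reads summed over the 8 blastema samples, 15.4 over the stump samples and 122 over the brain samples. The closest genes to the limit in brain were kcnj12.L, outside at 0.93 FPKM, and kcnk1.S, inside at 1.03 FPKM. In blastema kcnn1.L at 0.88 FPKM lay outside and kcnn2.L at 1.02 FPKM inside, and in stump kcnj16.L at 0.99 FPKM lay outside and kcnj10.L at 1.02 FPKM inside. In all, 34 genes were present in the 3 tissues alike, and 1, kcnj5.L, in none.

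**Figure D1:**
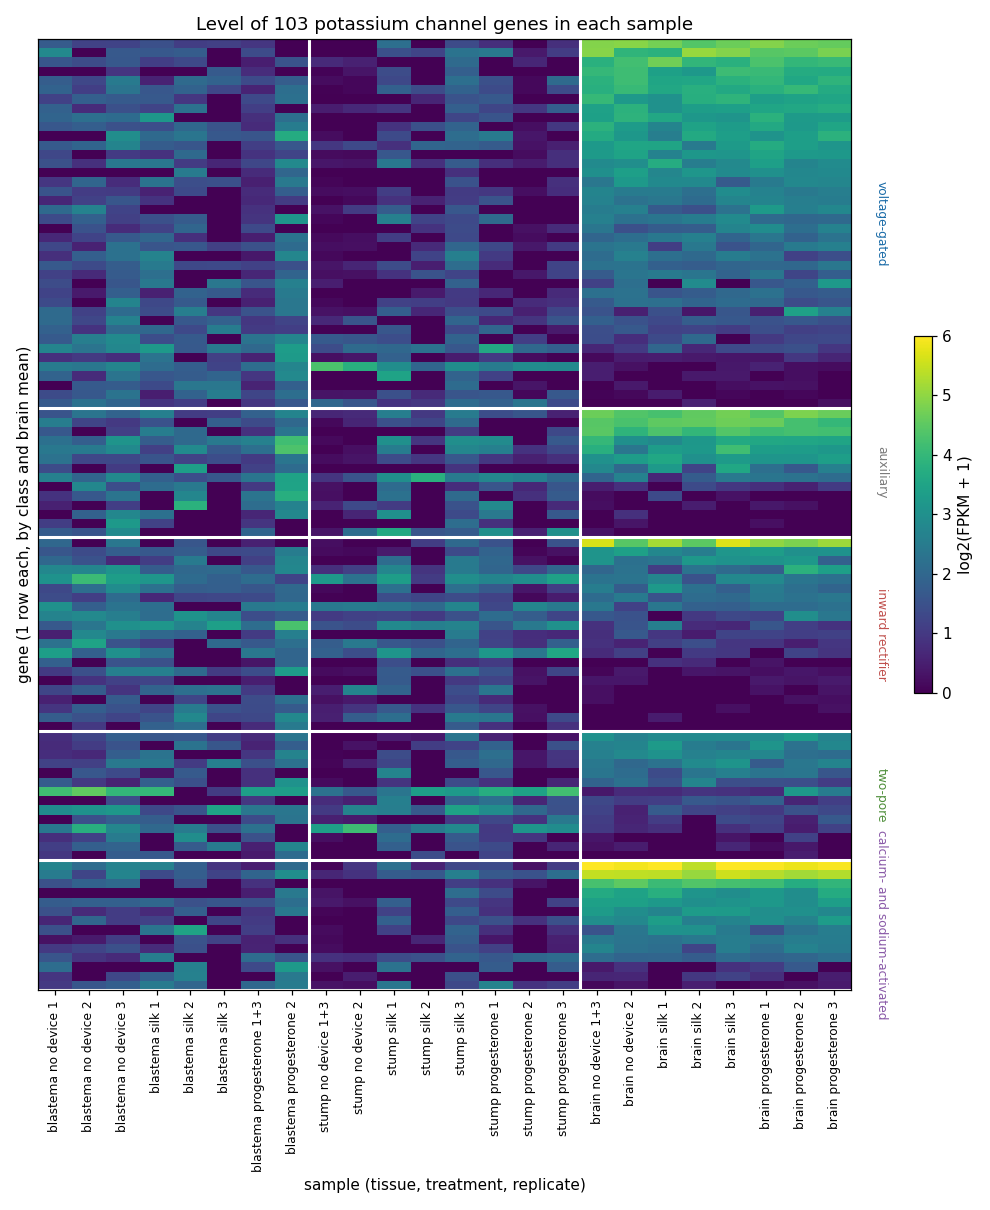
Level of each of the 103 potassium channel genes (rows, grouped by class and ordered by brain mean within it) in each of the 24 samples (columns, grouped by tissue and treatment), as log2(FPKM + 1) on a colour scale from 0 to 6, with values above 6 drawn in the top colour. The brain columns hold the high levels, up to 73.8 FPKM, whereas the lower rows of each class are dark in brain.

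Between brain and stump, 57 of the 103 genes were higher in brain and 12 lower in the limma test across all genes at an adjusted p under 0.05. These 69 genes are 67.0% of the channel genes, beside 36.5% of all 42326 genes tested, of which 26.7% were higher and 9.73% lower. The median difference was 1.40 on the log2(FPKM + 1) scale for the channel genes and 0.08 for all genes. Between brain and blastema, 46 channel genes were higher in brain and 23 lower, again 67.0%, beside 49.7% of all genes, of which 24.4% were higher and 25.3% lower. The medians were 0.63 for the channel genes and −0.22 for all genes. Median-of-ratios scaling moved the all-gene medians to −0.13 against stump and −0.34 against blastema and called 71 and 64 channel genes. Both comparisons use the same brain samples. The 2 sets of samples did not overlap at all for 44 channel genes between brain and stump, 40 of them higher in brain, or for 43 with the 27 libraries kept separate. Of all genes tested 19% did not overlap between these tissues, 15.8% being higher in brain. Between brain and blastema 34 channel genes did not overlap, 28 of them higher in brain, or 33 with separate libraries, beside 18.5% of all genes, 12.8% being higher in brain. Without the library labelled brain silk 3, 66 genes passed in each comparison. The no-device groups were also contrasted alone, with the filter and the spread still taken from all samples. In that contrast, 50 passed between brain and stump and 34 between brain and blastema. The counts after scaling, without that library and in this contrast have no share of all genes beside them. They therefore do not show whether the channel genes stayed above the background. Differences on this scale understate the change of low genes.

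**Figure D2:**
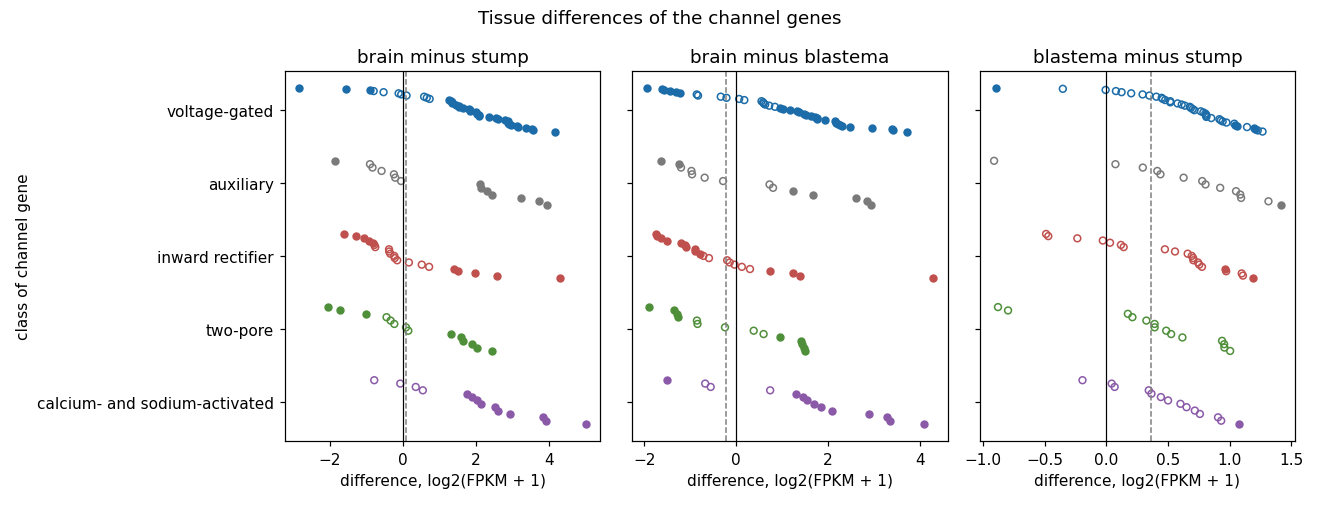
Difference of each of the 103 channel genes between tissues on the log2(FPKM + 1) scale (x axis), by class (rows), with filled points past an adjusted p of 0.05, a solid line at 0 and a dashed line at the median of all genes (0.08, −0.22 and 0.36). In the first 2 panels most voltage-gated and calcium- and sodium-activated genes lie to the right of 0. Inward rectifiers spread to both sides, up to 4.32 and 4.29. In blastema minus stump 9 points are filled.

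Voltage-gated pore-forming genes were the largest class and 29 of 40 were higher in brain than in stump, with 3 lower. Their summed FPKM was 220 to 270.4 in brain, 46.8 to 140.9 in blastema and 21.5 to 92.9 in stump, so brain did not overlap with either limb tissue. Against blastema, 22 were higher in brain and 6 lower. The highest in brain was kcnd3.L, which encodes an A-type channel subunit that opens and inactivates rapidly below the firing threshold. It ran from 20.1 to 29.7 FPKM in brain with a median of 25.1, from 0 to 3.6 in stump with a median of 0.37, and from 0 to 2.3 in blastema with a median of 1.24. Every brain sample exceeded every limb sample. The difference was 4.17 (SE 0.28, limma adjusted p = 2.9e-10) against stump and 3.72 (SE 0.28, adjusted p = 3.2e-09) against blastema.

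The kcnc genes encode channels with fast gating that let neurons fire at high rates. kcnc1.L held 12.96 to 24.9 FPKM in brain and at most 3.21 in a limb sample, with a difference of 3.57 (SE 0.32, limma adjusted p = 1.1e-08) between brain and stump. kcnc2.S held 8.18 to 16.5 FPKM in brain, was listed at 0 in 5 of 8 blastema samples and differed from blastema by 3.40 (SE 0.32, limma adjusted p = 3.4e-08).

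Of the 6 kcna genes, of the Shaker family, 5 were higher in brain than in stump, and the same count was higher in brain than in blastema. The brain medians of these 5 ran from 4.85 FPKM in kcna4.L to 10.3 in kcna1.S. Of the 7 kcnq genes, 3 were higher and 1 lower in brain than in stump, with the same counts against blastema. kcnq3.S, whose product takes part in the M-current that restrains repeated firing, held 7.23 to 13.4 FPKM in brain and at most 3.75 FPKM in a limb sample. It was higher in brain than in either limb tissue, by 2.55 over stump (SE 0.33, limma adjusted p = 2.3e-06). All 6 kcnh genes, relatives of the ether-a-go-go and HERG channels, were higher in brain than in stump, and 4 were higher in brain than in blastema.

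The kcnf, kcng, kcns and kcnv genes encode modifier subunits that form no channel alone and join kcnb subunits. Of these 13 genes, 7 were higher and 1 lower in brain than in stump, and 4 were higher and 4 lower in brain than in blastema. The symbol kcns2.L is listed under 2 gene numbers. The copy numbered gene5073 held 4.9 to 13.5 FPKM in brain and 0 to 11.8 in blastema and was higher in brain than in both limb tissues, whereas the copy numbered gene17255 held 0 to 0.38 FPKM in brain and 0.42 to 4.87 in blastema and was lower in brain than in blastema. kcnv2.L and kcnv2.S were also lower in brain than in blastema, with no brain sample over 0.415 FPKM. kcns2.S held 0 to 0.46 FPKM in brain, 0.85 to 4 in stump and 0 to 3.72 in blastema, and it was lower in brain than in stump by −1.57 (SE 0.26, limma adjusted p = 5.7e-05). Near-identical copies share reads of 40 nt, so the values of single copies are uncertain.

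The 3 voltage-gated genes lower in brain than in stump were kcna7.S, kcns2.S and kcnq1.L. kcna7.S had the largest difference of the channel genes in that direction. kcna7 encodes a Shaker-family subunit known from heart and skeletal muscle in mammals. The 2 no-device stump samples held 18.6 and 12.8 FPKM, the silk stump samples 6.62, 2.88 and 6.65, and the progesterone stump samples 4.6, 6.45 and 6.12. The no-device stump samples were therefore the highest of all 24. The blastema samples held 1.31 to 5.69 FPKM and the brain samples 0 to 0.48, so that brain lay below both limb tissues without overlap. The difference was −2.85 (SE 0.24, limma adjusted p = 4.2e-09) between brain and stump and −1.95 (SE 0.24, adjusted p = 1.2e-06) between brain and blastema. The summed FPKM of the skeletal muscle fibre markers was likewise highest in no-device stump, at 45220 and 70414, beside 3971 to 9834 with silk and 3472 to 23611 with progesterone, and its part in the level of kcna7.S was not tested. kcnq1.L encodes the slow delayed rectifier of heart and epithelia that pairs with kcne subunits. It held 0.575 to 2.93 FPKM in brain, 2.21 to 9.01 in blastema and 1.63 to 11.3 in stump, with a difference of −1.43 (SE 0.32, limma adjusted p = 0.0012) between brain and blastema.

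Auxiliary subunits divided by family. The 4 kcnab genes encode cytoplasmic beta subunits and the 3 kcnip genes encode calcium-binding partners of kcnd channels. All 7 were higher in brain than in stump, and 5 were higher in brain than in blastema. The 6 kcne genes, single-pass membrane subunits known for pairing with kcnq1, had no member higher in brain, with 1 lower than in stump and 2 lower than in blastema. For kcnab2.L the brain samples held 18.1 to 27.4 FPKM, the blastema samples 1.1 to 5.49 and the stump samples 0.48 to 4.91, which do not overlap with brain. kcnip2.S held 15.02 to 24.6 FPKM in brain, kcnip1.L held 13.99 to 21.2, and neither exceeded 4.87 in a limb sample. The difference of kcnip1.L between brain and stump was 3.94 (SE 0.37, limma adjusted p = 2.7e-08).

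Among the kcne genes the limb values were scattered. kcne5.L ran from 0.27 to 11.4 FPKM in stump with a median of 2.88 and from 0 to 6.3 in blastema with a median of 0.98, and it was listed at 0 in 7 of 8 brain samples, the other holding 0.22. It was lower in brain than in stump by −1.87 (SE 0.42, limma adjusted p = 0.0011), and in the contrast of the no-device groups the adjusted p was 0.47. kcne5.S was lower in brain than in blastema by −1.64 (SE 0.44, limma adjusted p = 0.0047), with 0 to 12.6 FPKM in blastema and 0 to 1.54 in brain, which overlap. For kcne5.S the limma adjusted p in the contrast of the no-device groups was 0.21. kcne4.S, an inhibitor of kcnq1 currents in mammalian cells, had the highest stump mean of the auxiliary genes, 5.14 FPKM, and its median was 3.45 FPKM in blastema, 4.85 in stump and 3.57 in brain. It did not pass the test in any tissue comparison.

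Inward rectifiers were split between brain and limb. Of 21 genes, 5 were higher and 5 lower in brain than in stump, and 4 were higher and 10 lower in brain than in blastema. Their summed FPKM overlapped in the 3 tissues, with 55.5 to 89.2 in brain, 37.5 to 88.8 in blastema and 21.0 to 66.9 in stump. kcnj10.L, which encodes the potassium-buffering channel of astroglia, had the highest brain level of the class. It held 20.7 to 50.3 FPKM in brain with a median of 32.4, against 0 to 3.16 in stump and 0 to 4.19 in blastema. No limb sample came near the lowest brain sample, and the difference was 4.32 (SE 0.40, limma adjusted p = 2.3e-08) against stump and 4.29 (SE 0.40, adjusted p = 4.1e-08) against blastema. The summed FPKM of 7 astroglial marker genes was 439.5 to 789.4 in brain, 12.5 to 97.7 in stump and 26.8 to 119.1 in blastema, and its part in the difference was not tested.

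The genes of G protein-gated inward rectifiers, kcnj5, kcnj6 and kcnj9, through which transmitters slow firing, comprise 5 genes. Of these, 3 were higher in brain than in stump and 2 were higher in brain than in blastema. kcnj6.L held 4.85 to 9.57 FPKM in brain, 1.45 to 4.71 in blastema and 0 to 2.77 in stump, so brain stood above both limb tissues. kcnj12.S, a strong rectifier of the kind that holds the resting voltage of muscle and nerve, held 2.66 to 8.2 FPKM in brain and 0 to 5.66 in blastema, which overlap.

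The limb-high inward rectifiers had other roles. kcnj8 encodes a pore subunit of ATP-sensitive channels, known from vascular smooth muscle and pericytes in mammals, and both copies were lower in brain than in either limb tissue. kcnj8.L ran from 2.18 to 18.4 FPKM in blastema with a median of 6.27, from 1.61 to 7.26 in stump with a median of 4.67, and from 0.58 to 5.03 in brain with a median of 0.99. The brain range overlapped that of blastema through 1 silk sample at 5.03, and that of stump through this sample and those at 2.04 and 1.95. The difference was −1.63 (SE 0.36, limma adjusted p = 0.00091) between brain and blastema. For kcnj8.S it was −1.61 (SE 0.37, limma adjusted p = 0.0013) between brain and stump, with 1.68 to 10.99 FPKM in stump and 0 to 1.3 in brain. In the contrast of the no-device groups neither of these 2 differences passed (limma adjusted p = 0.24 and 0.68). The summed FPKM of the smooth muscle and pericyte markers was 139.4 to 424.1 in stump, 52.8 to 311.3 in blastema and 51.1 to 123.1 in brain, and its part in these differences was not tested.

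kcnj15 and kcnj16, subunits of channels in kidney and other epithelia of mammals, have 4 genes here, which were all lower in brain than in blastema, and 3 were lower than in stump. kcnj15.L held 1.34 to 6.01 FPKM in blastema, and it was listed at 0 in 7 of 8 brain samples and held 0.38 in the other. The difference was −1.75 (SE 0.39, limma adjusted p = 0.0011) between brain and blastema. kcnj14.L, a further strong rectifier, held 1.02 to 9 FPKM in blastema and 0 to 0.33 in brain, which do not overlap, with a difference of −1.73 (SE 0.33, limma adjusted p = 0.00021). In the contrast of the no-device groups neither gene passed (limma adjusted p = 0.15 and 0.10). kcnj1.L, the potassium secretory channel of the mammalian kidney, was listed at 0 in all 8 brain samples and held 0 to 4.42 FPKM in blastema.

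kcnj2, the classical strong rectifier of muscle, had overlapping levels in the 3 tissues. kcnj2.L ran from 1.32 to 16.0 FPKM in blastema with a median of 5.36, from 1.07 to 9.88 in stump with a median of 6.75, and from 1.83 to 6.13 in brain with a median of 3.99. Neither copy passed the test in any tissue comparison (smallest adjusted p for kcnj2.L 0.44). kcnj13, found in choroid plexus and other epithelia of mammals, held a median of 4.39 FPKM for the .L copy in blastema, 2.165 in stump and 3.495 in brain. For kcnj13.S these medians were 5.22, 1.37 and 1.67, and it was lower in brain than in blastema by −0.80 (SE 0.28, limma adjusted p = 0.024).

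**Figure D3:**
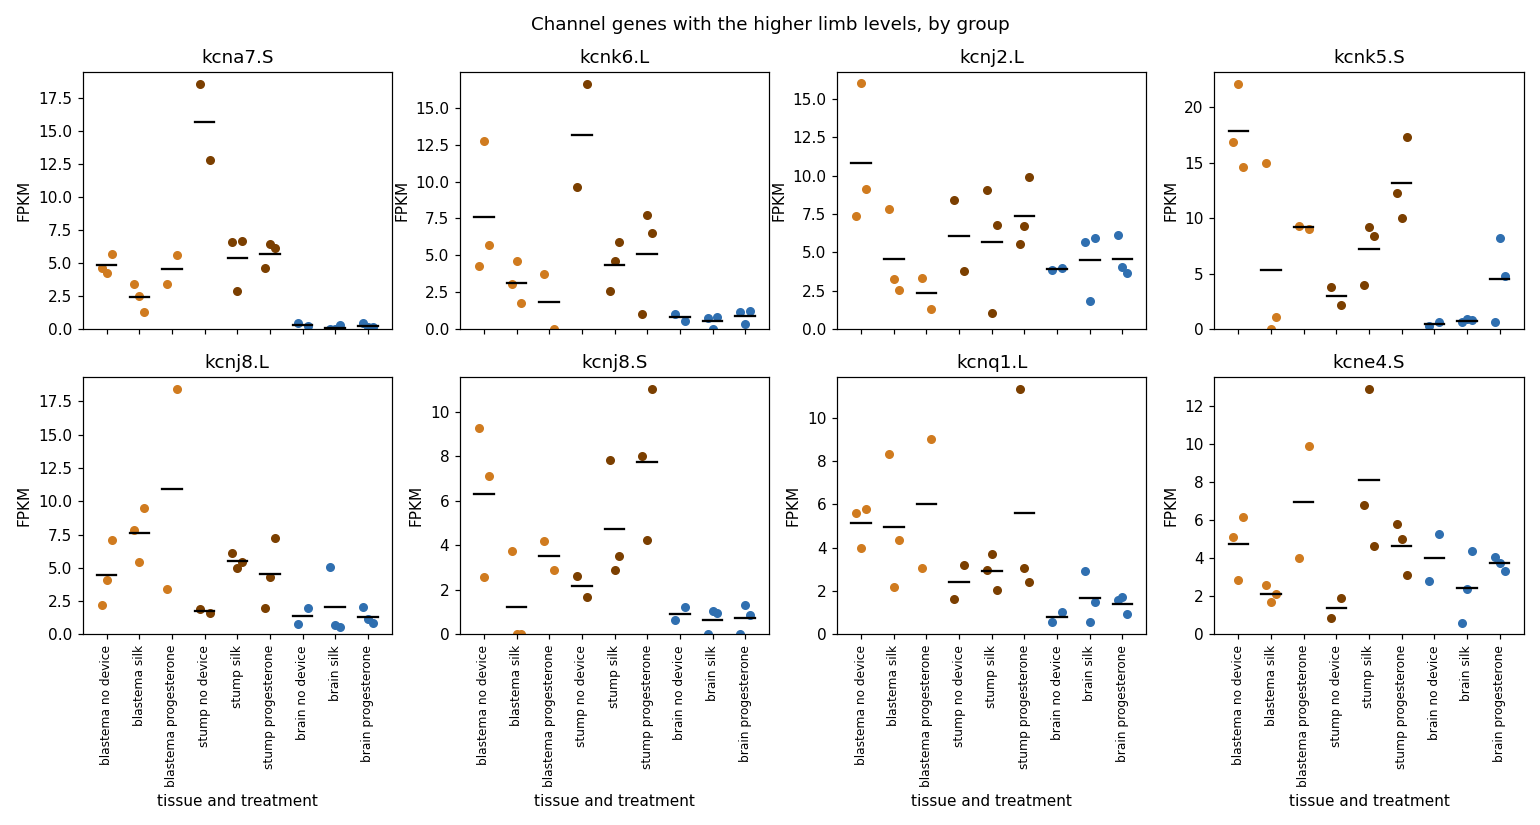
FPKM (y axis, linear, scaled per panel) of 8 channel genes among the highest of their classes in the limb, by tissue and treatment (x axis). Points are samples, 2 or 3 per group, and bars are group means. Of these genes, kcnj2.L and kcne4.S passed the test in no tissue comparison. kcna7.S is highest in the 2 no-device stump samples (12.8 and 18.6), kcnk5.S is highest in no-device blastema (14.6 to 22.1), and in brain 2 progesterone samples stand apart for kcnk5.S (8.16 and 4.78).

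Two-pore channels had similar summed levels in the 3 tissues, 30.7 to 39.5 FPKM in brain, 25.8 to 55.6 in blastema and 16.0 to 43.6 in stump, but the sums were made of different genes. Of 14 genes, 6 were higher in brain than in stump, and these were the 6 members of kcnk2, kcnk9, kcnk10 and kcnk15. kcnk2 and kcnk10 encode channels opened by stretch and lipids, and kcnk9 an acid-sensitive channel. kcnk10.L held 5.22 to 8.75 FPKM in brain, 0.63 to 4.04 in blastema and 0 to 4.06 in stump, so that brain lay above both, with a difference of 2.43 (SE 0.31, limma adjusted p = 1.8e-06) from stump. kcnk10.S held 3.38 to 7.28 FPKM in brain and 0 to 5.44 in blastema. kcnk9.L held 3.82 to 8.64 FPKM in brain and 0 to 3.89 in blastema, which overlap only between the lowest brain and the highest blastema sample.

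The 3 two-pore genes lower in brain than in stump were kcnk5.S, kcnk6.L and kcnk6.S, and they were the highest two-pore genes in both limb tissues. kcnk5 encodes an alkaline-activated channel of epithelia. kcnk5.S had the highest blastema mean of the 103 genes, and its blastema samples ran from 0 to 22.1 FPKM with a median of 11.96. Stump ran from 2.16 to 17.3 with a median of 8.79 and brain from 0.315 to 8.16 with a median of 0.735. Brain overlapped both limb tissues, through 2 progesterone samples at 8.16 and 4.78 on its side and through 2 silk samples at 0 and 1.07 on the side of blastema. The difference was −1.73 (SE 0.45, limma adjusted p = 0.0040) between brain and stump and −1.90 (SE 0.45, adjusted p = 0.0016) between brain and blastema. In the contrast of the no-device groups the one against stump did not pass (limma adjusted p = 0.36). kcnk6 encodes a weakly rectifying channel found in lysosomes, vessels and immune cells of mammals. kcnk6.L held 0.99 to 16.6 FPKM in stump, highest in the no-device samples at 9.66 and 16.6, 0 to 12.8 in blastema and 0 to 1.22 in brain. It was lower in brain than in stump by −2.07 (SE 0.37, limma adjusted p = 0.00014). Apart from these, kcnk16.L was lower in brain than in blastema and kcnk1.L higher, and kcnk1.S, kcnk7.L and kcnk17.L passed in no tissue comparison.

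Calcium- and sodium-activated subunits had the largest median difference of the 5 classes, 2.09 against stump and 1.61 against blastema on the log2(FPKM + 1) scale. Against stump 71.4% of them were called, beside 80% of the voltage-gated genes. Of 14 genes, 10 were higher in brain than in stump and none lower, and 10 were higher in brain than in blastema and 1 lower, kcnn4.L. Their summed FPKM was 138.7 to 188.1 in brain, 6.87 to 42.2 in blastema and 2.89 to 29.5 in stump. kcnn3.S, which encodes a small-conductance channel that shapes the pause after an action potential, had the highest level of the 103 genes. It held 41.4 to 73.8 FPKM in brain with a median of 60.7, 0.065 to 3.54 in stump with a median of 1.03, and 0.425 to 5.51 in blastema with a median of 3.28. The lowest brain sample lay far above the highest limb sample, and the difference of 5.02 (SE 0.32, limma adjusted p = 1.5e-10) from stump was the largest of the channel genes. From blastema it differed by 4.09 (SE 0.32, limma adjusted p = 4.7e-09).

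kcnma1.L encodes the pore of the large-conductance BK channel, and kcnmb2.S and kcnmb4.L encode its beta subunits. kcnma1.L held 32.7 to 45.7 FPKM in brain, 1.29 to 6.79 in blastema and 0.565 to 5.06 in stump, with a difference of 3.84 (SE 0.27, limma adjusted p = 3.4e-10) between brain and stump. kcnmb2.S held 12.1 to 21.7 FPKM in brain, was listed at 0 in 5 of 8 stump samples and reached 3.14 in blastema, with a difference of 3.92 (SE 0.28, limma adjusted p = 4.2e-10) between brain and stump. For both genes the brain samples stood apart from all limb samples. kcnn4.L, the intermediate-conductance channel of blood cells and epithelia, differed in the other direction, with 0 to 0.41 FPKM in brain and 0 to 4.6 in blastema, and a difference of −1.51 (SE 0.38, limma adjusted p = 0.0030). kcnt2.L, the sodium-activated channel of the class, held 3.75 to 4.84 FPKM in brain and at most 2.43 in a limb sample, and was higher in brain than in both limb tissues. kcnn1.L, kcnn1.S, kcnn2.L and kcnn3.L were higher in brain than in both limb tissues as well, with brain medians of 4.11 to 8.37 FPKM. The locus named kcnn2 with no suffix did not pass, at 2.33 to 3.52 FPKM in brain and 0.71 to 3.37 in stump.

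Other genes of potassium handling were looked up from a list, and most were higher in brain. Of the list of 27 symbols for sodium pumps, chloride cotransporters that carry potassium, hyperpolarisation-activated channels and channel partners, 14 were found, as 23 genes. Of these, 15 were higher and 3 lower in brain than in stump, beside 26.7% and 9.73% of all genes. Against blastema, 14 were higher and 2 lower in brain, beside 24.4% and 25.3% of all genes. The medians were 1.997 and 2.082 on the log2(FPKM + 1) scale, beside 0.08 and −0.22 for all genes. Between blastema and stump 1 was higher and 2 lower, beside 6.6% and 1.03% of all genes. The median there was −0.06, beside 0.36 for all genes and 0.66 for the channel genes. slc12a5.L, the chloride-extruding cotransporter of neurons, held 41.5 to 56.3 FPKM in brain and 0.09 to 3.26 in stump, with a difference of 4.88 (limma adjusted p = 9.5e-11). dpp10.S, a partner of kcnd channels, held 23.7 to 31.5 FPKM in brain and 0.24 to 3.64 in stump. Neither gene overlapped between brain and stump. atp1b4.L, a muscle member of the pump's beta family, ran the other way, with 0 to 0.47 FPKM in brain and 11.97 to 40.4 in stump.

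Between blastema and stump, 8 channel genes were higher in blastema and 1, kcna7.S, was lower. These 9 genes are 8.74% of the channel genes, near the 7.62% of all genes that passed, of which 6.6% were higher and 1.03% lower, and the ranges of the 2 tissues overlapped for each of the 103 genes (0.0307% of all genes did not overlap). The median difference was 0.66 for the channel genes and 0.36 for all genes on the log2(FPKM + 1) scale, and 92 of 103 values (89.3%) were positive, beside 73.9% of all genes. The largest was kcnab3.S (gene36057), with 1.21 to 19.1 FPKM in blastema and 0 to 5.73 in stump, and a difference of 1.42 (SE 0.43, limma adjusted p = 0.047). A second locus of that name, kcnab3.S (gene18666), did not pass, at 1.32 (SE 0.40, limma adjusted p = 0.05002), and the 2 may share reads. kcnj6.L differed by 1.19 (SE 0.29, limma adjusted p = 0.021) and kcnn3.L by 1.08 (SE 0.27, limma adjusted p = 0.021). Higher in blastema as well were kcnv2.S, kcnh5.L, kcna2.L and kcnj13.S. kcna7.S was lower by −0.90 (SE 0.24, limma adjusted p = 0.027).

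This comparison depended on single samples. The count was 0 without blastema progesterone 2, without stump no device 1 and 3 together, or without stump no device 2, and 2 without stump progesterone 2. It was 5 without any one of stump silk 2, blastema no device 3, brain silk 2, brain progesterone 3, brain no device 2, or brain no device 1 and 3 together. It was 17 without stump progesterone 1, 20 without blastema silk 3, 25 without stump silk 3 and 36 without blastema progesterone 1 and 3 together. In the contrast of the no-device groups 1 channel gene passed, higher in blastema, and it was none of the 9 genes called above. A pseudocount of 0.1 gave 14 and voom on estimated reads 75, beside 47.3% of all genes. The other counts of passing channel genes here have no share of all genes beside them. Whether they follow the count of all genes called was not tested. The share of the channel genes at 1 FPKM or more was 12.6% and 21.4% in the 2 no-device stump samples, which hold the deepest library, beside 29.1% to 91.3% in the silk stump samples and 16.5% to 64.1% in the progesterone stump samples. Over all genes these shares were 38.5% and 48.2%, 45.7% to 83.3%, and 50.4% to 69.5%. The estimated depth was 2006133 to 3462946 reads in no-device stump libraries, 303065 to 685405 with silk and 490097 to 1686617 with progesterone, and its part in these shares was not tested.

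No channel gene passed the threshold in any of the 9 treatment comparisons in limma, which tested 98 channel genes in blastema, 65 in stump and 75 in brain. The background was low as well, at 0% of all genes in 8 of the 9 comparisons and 0.0221% in brain progesterone minus silk. At an unadjusted p under 0.05 in limma, the counts of channel genes in blastema were 6 for silk minus no device, 3 for progesterone minus no device and 2 for progesterone minus silk, beside 7.67%, 3.7% and 5.64% of all genes. In stump they were 8, 3 and 1, beside 13%, 9.85% and 3.83% of all genes, and in brain 1, 0 and 3, beside 4.71%, 2.91% and 7.93%. Each of these 9 counts was below the background share of its comparison. A voom fit on estimated reads gave 27 of 65 channel genes for stump silk minus no device, all higher, beside 24.8% of all genes. In stump the filter admitted a gene only if it reached 1 FPKM in at least 1 device sample. Genes low without a device thus entered only through device samples where they were higher. The direction over all genes is not given for this fit. Voom gave 2 for stump progesterone minus no device, beside 4.8% of all genes, and 0 in the other 7 treatment comparisons. For those 7 the share of all genes called with voom is not given. Their counts therefore do not place the channel genes against the background. Groups held 2 or 3 samples, and the smallest limma adjusted p of a channel gene was 0.22, for kcne4.S in stump silk minus no device.

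In blastema, the 6 genes with an unadjusted p under 0.05 for silk were all lower with silk, and the median of all genes was lower too, by −0.36 on the log2(FPKM + 1) scale, or −0.15 after median-of-ratios scaling. kcna3.S held 3.16, 5.28 and 1.29 FPKM without a device and was listed at 0 in all 3 silk samples, and with progesterone it held 0.81 and 0. kcne5.L held 2.35, 1.96 and 6.3 FPKM without a device and was listed at 0 in all 3 silk samples. kcnk5.S held 16.8, 22.1 and 14.6 FPKM without a device, 14.99, 0 and 1.07 with silk, and 9.32 and 9.05 with progesterone. Its silk samples thus spanned nearly the whole range, and the difference of −2.53 (SE 0.91) had a limma adjusted p of 0.52. kcnj2.L held 7.36, 16.0 and 9.11 FPKM without a device and 3.35 and 1.32 with progesterone, which do not overlap, with a difference of −1.83 (SE 0.70, limma adjusted p = 0.99). kcnk6.L held 4.28, 12.8 and 5.73 FPKM without a device and 3.73 and 0 with progesterone, where 3.73 is the mean of libraries at 5.59 and 1.86, so the libraries overlapped. Between the devices, kcnj16.S held 2.76, 3.6 and 3.76 FPKM with silk and 1.04 and 0 with progesterone, a difference of −1.61 (SE 0.64, limma adjusted p = 0.81). kcne5.S and kcnj2.S were the next by p, at 2.12 (SE 0.95, limma adjusted p = 0.89) and 1.76 (SE 0.80, limma adjusted p = 0.89). Silk blastema libraries held 217964 to 298683 estimated reads and no-device ones 403537 to 676447, and the muscle marker sums were 677 to 1981 with silk and 13314 to 26905 without a device. The part of either in these values was not tested.

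In stump, most differences from no device were positive, 54 of the 65 tested (83.1%) for silk and 54 for progesterone, beside 71.5% and 76.6% of all genes. With 2 no-device samples and a filter of 3 samples at 1 FPKM, each gene tested had to reach that level in at least 1 device sample. The medians were 0.94 and 0.74 for the channel genes beside 0.52 and 0.57 for all genes, and median-of-ratios scaling brought the latter to 0.10 and 0.11. kcne4.S held 0.865 and 1.91 FPKM without a device, 6.82, 12.9 and 4.67 with silk, and 5.79, 5.03 and 3.13 with progesterone. Both no-device samples lay below all device samples, and the silk difference was 1.87 (SE 0.59). kcnk5.S held 3.77 and 2.16 FPKM without a device, 4.01, 9.23 and 8.35 with silk, and 12.3, 10.0 and 17.3 with progesterone. The progesterone samples lay above the others. The value of 3.77 is the mean of libraries at 2.28 and 5.26, so without a device and with silk the libraries overlapped. The progesterone difference was 1.84 (SE 0.58, limma adjusted p = 0.37). kcnj8.S held 2.64 and 1.68 FPKM without a device, 7.81, 2.91 and 3.52 with silk, and 8.02, 4.23 and 10.99 with progesterone, and its progesterone difference of 1.41 (SE 0.61) had a limma adjusted p of 0.50. kcna7.S and kcnk6.L held their highest stump values without a device, and for kcna7.S the difference was −1.43 (SE 0.56, limma adjusted p = 0.31) with silk and −1.30 (SE 0.56, adjusted p = 0.49) with progesterone. kcnip2.S was listed at 0 in all 3 progesterone stump samples and held 1.81, 1.39 and 3.2 FPKM with silk.

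The difference of the device effect between blastema and stump was tested directly, and no channel gene passed in limma for silk or for progesterone, of 102 tested, beside 0.00241% of all genes for silk and 0% for progesterone. At an unadjusted p under 0.05 there were 10 for silk and 2 for progesterone, beside 10.7% and 5.39% of all genes. A fit with voom on estimated reads called 13 for silk, all lower, beside 4.62% of all genes. Over all genes the direction of the voom calls is not given here either. The 10 at an unadjusted p under 0.05 in limma were all negative, as was the median of all genes at −0.85, which median-of-ratios scaling brought to −0.25. The values came nearest to the threshold in kcne4.S, at −2.70 (SE 0.79, limma adjusted p = 0.34), and kcnk5.S, at −3.54 (SE 1.14, limma adjusted p = 0.36). Both had a higher mean with silk than without a device in stump and a lower one in blastema.

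In brain the treatment differences spanned narrower ranges than in the limb tissues. The channel genes differed by −0.81 to 0.90 between silk and no device, by −0.76 to 1.17 between progesterone and no device and by −0.74 to 1.41 between progesterone and silk on the log2(FPKM + 1) scale. kcna3.S had the smallest unadjusted p in 2 of these comparisons, with 4.75 and 5.15 FPKM without a device, 2.23, 1.75 and 3.76 with silk, and 8.63, 4.98 and 5.84 with progesterone. The silk samples lay below the rest, and the difference between progesterone and silk was 1.07 (SE 0.27, limma adjusted p = 0.41). kcnj13.S held 2.17 and 1.85 FPKM without a device, 0, 1.01 and 1.48 with silk, and 1.31, 6.78 and 4.21 with progesterone. kcnf1.S held 4.02 to 6.29 FPKM with silk and 3.04 to 3.23 with progesterone, without overlap, and a limma adjusted p of 0.61. The next by p were kcnmb1.S and kcnd1.S for silk minus no device, at 0.90 and −0.42 (limma adjusted p = 0.94 for both), and kcng2.L and kcnk15.S for progesterone minus no device, at −0.76 and −0.74 (limma adjusted p = 1 for both). Leaving out the library labelled brain silk 3 also gave 0 channel genes in the brain comparisons, with no share of all genes beside this count. The ranges above include that library, which was near-identical to brain no device 1 and 3. With single brain samples left out in turn, silk minus no device ran from −0.997 to −0.601 for kcna3.S. For kcnmb1.S it ran from 0.499 to 1.30.

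**Figure D4:**
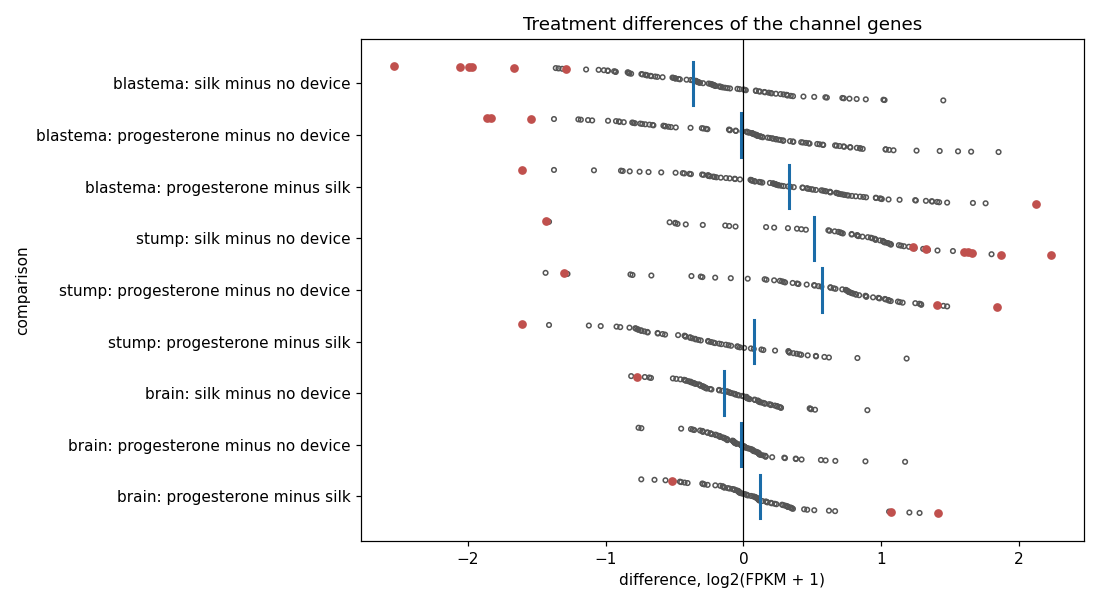
Difference of each tested channel gene in the 9 treatment comparisons (rows) on the log2(FPKM + 1) scale (x axis), with larger filled points at an unadjusted p under 0.05 and a blue bar at the median of all genes tested. No point passed an adjusted p of 0.05, the brain rows are the narrowest, and the bars of stump silk and stump progesterone minus no device sit at 0.52 and 0.57.

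The authors' deposited tables of comparisons called more genes in stump. In the authors' deposited table of stump silk against no device, 45 of 103 channel genes had a q-value under 0.05, 42 higher and 3 lower, which is 43.7% beside 26.5% of all genes in that table (18.2% higher and 8.32% lower). By class, the authors' deposited table had 18 voltage-gated, 8 auxiliary, 8 inward rectifier, 5 calcium- and sodium-activated and 3 two-pore genes higher with silk. In the authors' deposited table of stump progesterone against no device, 16 of 101 channel genes had a q-value under 0.05, 11 higher and 5 lower, or 15.8% beside 15.3% of all genes (8.28% higher and 7.03% lower). Both comparisons share the no-device libraries, 2 of which were near-identical. kcna7.S was lower in both of the authors' deposited tables, by a log2 fold change of −2.81 (q = 3.5e-08) with silk and −2.48 (q = 4.9e-08) with progesterone. kcnk6.L was lower in both of the authors' deposited tables as well, at −2.17 and −1.97, and in the authors' deposited table for silk kcnj2.L was lower, at −1.47. The levels behind the 42 higher genes in the authors' deposited table were low in stump: their group means had a median of 0.04 FPKM without a device and 1.55 with silk. In the authors' deposited tables of the other comparisons, kcnn3.S was lower in blastema with progesterone than without a device (log2 fold change −2.57, q = 0.0085, beside 1.48% of all genes, 0.748% lower) and kcnk5.S was higher in brain with progesterone than without a device (3.31, q = 0.010, beside 0.101% of all genes, 0.0773% higher). The authors' deposited tables called 0 channel genes in the other 5 comparisons, beside 0.319% of all genes for blastema silk against no device, 0.00477% for blastema silk against progesterone, 0.0244% for brain silk against no device, 0.094% for brain silk against progesterone and 0.0625% for stump silk against progesterone. The kcnk5.S value rested on 2 of 3 progesterone samples, at 8.16 and 4.78 FPKM, the other being at 0.67. For kcnn3.S the progesterone blastema libraries held 0.59, 3.22 and 0.26 FPKM, of which the first and the last were counted as 1 sample here, and the no-device libraries held 5.51, 3.33 and 5.3. With these counted as 1 sample the limma difference for kcnn3.S was −1.20 (SE 0.75, adjusted p = 0.99). The authors' log2 fold change and this difference in log2(FPKM + 1) are unlike in method and scale too. Set side by side, they do not show what counting the libraries as 1 sample changed.

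Of the 72 symbols, 27 had 1 .L and 1 .S copy, and 20 of these pairs summed to at least 5 FPKM in a tissue. kcnn3 in brain had 8.29 ± 1.17 FPKM for .L and 60.9 ± 10.2 for .S (SD, n = 8), with .S higher in 8 of 8 samples, and kcnj12 in brain had 0.93 for .L and 6.14 for .S and kcnmb1 in brain 0.658 for .L and 4.43 for .S in the same way. In kcnj12 the balance differed by tissue: the .L copy had the higher mean in blastema, 3.23 beside 2.23, and was higher in 6 of 8 samples.

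In kcne5, .S had the higher mean in blastema, 3.65 beside 1.68 FPKM, and .L in stump, 4.25 beside 1.27, higher in 6 of 8 samples. The SD of each of these means was 1.55 to 4.15 FPKM, so the copies overlapped. kcnj8 and kcnk6 changed their more abundant copy between blastema and stump too, and kcnj13 between blastema and brain, but in blastema kcnj13 was at 4.46 and 4.64 FPKM with each copy higher in 4 of 8 samples. In kcnj13 in brain, .L was higher in 8 of 8 samples. The balance between copies was not tested, and reads shared by near-identical copies make it uncertain.

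**Figure D5:**
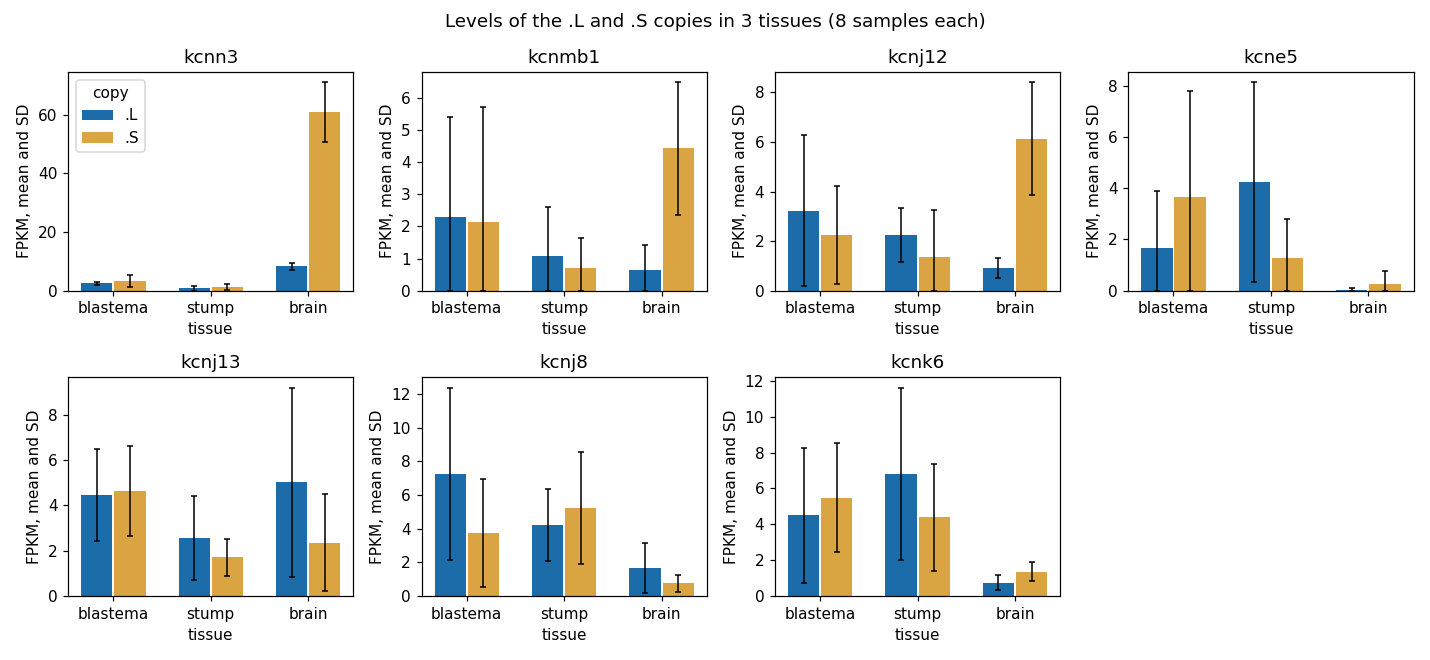
Mean FPKM (y axis, linear from 0) of the .L and .S copies of 7 channel genes in the 3 tissues, with error bars of 1 SD over 8 samples, drawn no lower than 0. The .S bars of kcnn3 and kcnj12 stand out in brain (60.9 and 6.14), and the kcne5, kcnj8 and kcnk6 bars overlap within their SDs in both limb tissues.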

How the data were processed

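RNA of 3 tissues in 3 treatment groups was sequenced as 27 libraries. Per the labels' protocols, ribosomal RNA was depleted from total RNA and 40 nt were read. FastQC, Trimmomatic, STAR, RSEM and edgeR are named in the submitters' processing notes. For the genome build, the annotation and the strandedness, details were not given in the sources used here. The authors deposited 9 tables of 42903 genes. Their library values carry no unit and were taken as FPKM made by the authors, since the product of value and gene length has nearly 1 common total over libraries. The gene length was itself derived from these values and the deposited group means, with the mean total set in advance. The common total is therefore not an independent check of the unit. The deposited p-values, q-values and log2 fold changes are the authors' own. The group means deposited beside them, called average CPM per the file headers, were treated as a signal, and 0 library columns were left unused.

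Reads per gene were estimated from the FPKM and these means. Between 56.07% and 62.86% of low values came within 0.1 of whole reads, too few to recover counts. No test on whole counts was therefore run, the estimated reads entered only an alternative fit with voom, and depth and counting error are approximate. Libraries of a group were averaged where fewer than 1% of genes differed in a chi-square test (Benjamini-Hochberg, at least 20 reads per gene), a limit chosen with earlier results known.

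Differences were tested on log2(FPKM + 1) with limma (version 3.58.1, R version 4.3.3), fitting group means with no block. A gene entered a fit where at least 3 samples reached an FPKM of 1, and the threshold was a Benjamini-Hochberg adjusted p under 0.05 over all genes tested. Tissue comparisons used the 24 samples in 1 fit and average the 3 treatments, treatment comparisons used 1 fit per tissue, and the difference of device effects 1 fit of the limb samples. The steps were tested on simulated data with changes planted only in genes of higher mean FPKM, so low channel genes were not covered. The channel genes, the marker and partner lists and the rules were chosen with earlier results of these data known. Genes were named by a rule: the 3 highest per class and tissue, up to 6 per direction with the largest called tissue differences, the 3 smallest p per treatment comparison, and the copy pairs most unequal or switching between tissues. Some genes the rule chose are not reported here, and others were added after their values were seen. Alternatives were separate libraries with and without a replicate block, a pseudocount of 0.1, other filters on low values, and median-of-ratios scaling. Voom on estimated reads, with the total of estimated reads as library size, was a further one. The rest were a contrast of the no-device groups within the fit of all samples, summed copies, and each sample left out.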

Additional observations from a re-analysis of the deposited data

How the results depend on the processing

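Of the counts of channel genes, 280 of the values under other settings lay within 1.5 times of the main count and 25 did not. These counts are given without the share of all genes called, so they do not place the channel genes against the background. Most of those 25 concern blastema minus stump, with 9 genes. Separate libraries gave 20 there, or 19 with the replicate number as a block. A pseudocount of 0.1 gave 14 and voom 75. The contrast of the no-device groups gave 1, which was none of the 9, and leaving out single samples gave 0 to 36. Brain minus blastema, with 69, gave 34 in the contrast of the no-device groups. The filter of at least 10 estimated reads on average, chosen after seeing the data, left 49 channel genes, of which 45 passed for brain minus stump and 40 for brain minus blastema, so fewer genes were tested. With voom, stump silk minus no device gave 27, stump progesterone minus no device 2 and the silk difference between blastema and stump 13, in place of 0. Voom applied no scaling beyond the total of estimated reads. The cause of these changes was not tested. Leaving out single samples gave 62 to 71 for brain minus stump, 62 to 72 for brain minus blastema and 0 in each treatment comparison. Of 69 calls, 62 and 55 held with every sample left out in turn, and of the 9 calls of blastema minus stump 0 did. Of single named differences, 1528 kept their direction and side of the threshold, 86 no longer passed, 5 passed only with voom and 1 reversed: kcns2.S in brain minus stump was 1.06 (limma adjusted p = 0.021) when copies were summed, because the sum holds the more abundant kcns2.L. Deviations of same-numbered libraries from their group means had correlations of −0.304 to 0.144 between groups that share a tissue or treatment. With few libraries per group, some near-identical, this cannot tell whether they came from the same frog. The main fit used no pairing. The replicate block gave 73 and 75 calls of brain against stump and blastema and 0 in each treatment comparison. At these depths a gene listed at 0 in a shallow blastema library can stand for several FPKM, so low channel genes cannot be ranked between limb groups.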

Other observations

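Some brain libraries stood apart for single channel genes, which was noticed after the values were seen and not tested. In brain progesterone 2 and 3, kcnj13.L held 13.4 and 9.47 FPKM, kcnj13.S 6.78 and 4.21, and kcnk5.S 8.16 and 4.78. The other brain libraries held at most 3.85 FPKM of kcnj13.L, 2.39 of kcnj13.S and 0.86 of kcnk5.S. Both kcnj13 and kcnk5 are known from epithelia in mammals. The astroglial channel kcnj10.L held 45.4 and 52.5 FPKM in brain no device 1 and 3 and 50.3 in the library labelled brain silk 3, which is near-identical to them, and 20.7 to 35.7 FPKM in the 6 other brain libraries.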
